A study of Mus musculus with 30 samples.

Results

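Blood of mice with collagen-induced arthritis (CIA) was compared with blood of healthy mice. The members were chosen by library label: 8 blood libraries of 30 in the pilot table of 8 organs, with 2051 barcodes of 8282. They came from 3 CIA mice, here A2, A6 and A7, and from 4 healthy mice, here N3, N4, N6 and N7. N4 gave 2 libraries, which were added up, and no barcode sequence occurred in more than 1 blood library. All mice were male DBA1/J, an inbred strain prone to arthritis, aged 8 to 12 weeks by the study's methods. CIA mice had received 100 µg of bovine collagen II in complete Freund's adjuvant with a boost on day 20, so they differed from the PBS-treated controls in adjuvant as well as collagen. The labelled arthritis score was 8 for A2, 3 to 4 for A6, 3 for A7 and 0 for the healthy mice. Both groups were measured by Seq-Well, in which single cells and barcoded beads share small wells. Both were mononuclear cells from a density gradient with red cell lysis. Neutrophils and red cells should thus largely have been removed, and the libraries do not stand for whole blood.

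Neutrophils are short-lived phagocytes that leave the marrow in large numbers during inflammation and carry the calcium-binding proteins S100A8 and S100A9 as their most abundant cytosolic proteins. Classical monocytes, which bear Ly6C and CCR2 in the mouse, enter inflamed tissue and become macrophages. Type I and type II interferons switch on a shared group of antiviral genes in nearly every cell, and these genes are often used to read interferon exposure. T and B lymphocytes form most of the mononuclear cells in healthy mouse blood.

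The deposited values were units of a smoothed signal, in which each barcode had been summed with its nearest neighbours. Units were added per mouse and scaled to 1000000 units of that mouse (abbreviated UPM). The 8 libraries held 27 to 934 barcodes with 7 to 596 distinct profiles, and 217494 to 6756698 units in all. N3 (27 barcodes, 7 distinct profiles) and A6 (62 barcodes, 22 distinct profiles) were the thinnest mice. Of 4416 tested genes, 1211 were listed at 0 in N3, 1803 in A6 and 1225 in A7, against 41 to 220 in the other mice. The lowest level listed above 0 was 41.4 UPM in N3, 34.2 in A6 and 11.5 in A7, so a value listed at 0 in these mice does not show that a gene was absent. All 3 CIA libraries carried the title suffix 2CIA, and so did N3 and 1 library of N4. The other healthy libraries carried the suffix CIA, and the labels do not say what the suffix stands for. Values within the suffix 2CIA are given for the myeloid and lymphoid sums and for some of the genes. A level summed over a mouse cannot separate more cells of a type from more RNA per cell.

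The summed levels of the myeloid and of the interferon-stimulated genes were higher in every CIA mouse than in any healthy one. Singly, 8 of 61 tested myeloid and 2 of 19 tested interferon members passed the test as higher. Over all 4416 tested genes 16 passed as higher (0.362%) and 0 as lower. The lymphocyte sum lay lower, and none of its genes passed. Summed over its 89 members in the table, the myeloid programme (neutrophil, granule, monocyte and shared signalling genes) made up 1.20% of units in N3, 0.603% in N4, 0.791% in N6 and 1.24% in N7. It made up 9.80% in A2, 3.36% in A6 and 9.46% in A7, a ratio of means of 7.88 with no overlap between the groups. The lymphoid programme of 98 members made up 1.96% to 3.13% in healthy mice, and 0.623% in A2, 1.93% in A6 and 1.92% in A7. A6 and A7 thus lay only just under the lowest healthy mouse, and A2 far below it. Within the suffix 2CIA, the lymphoid programme overlapped, at 19794 UPM in N3 and 16303 in the library of N4 against 6230 in A2, 19302 in A6 and 19196 in A7. There the myeloid programme did not overlap, at 11954 and 5931 UPM against 98008, 33619 and 94594. The globin genes varied within both groups, from 3.75% to 52.4% in the healthy group and from 5.98% to 38.3% in the CIA group.

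**Figure D1:**
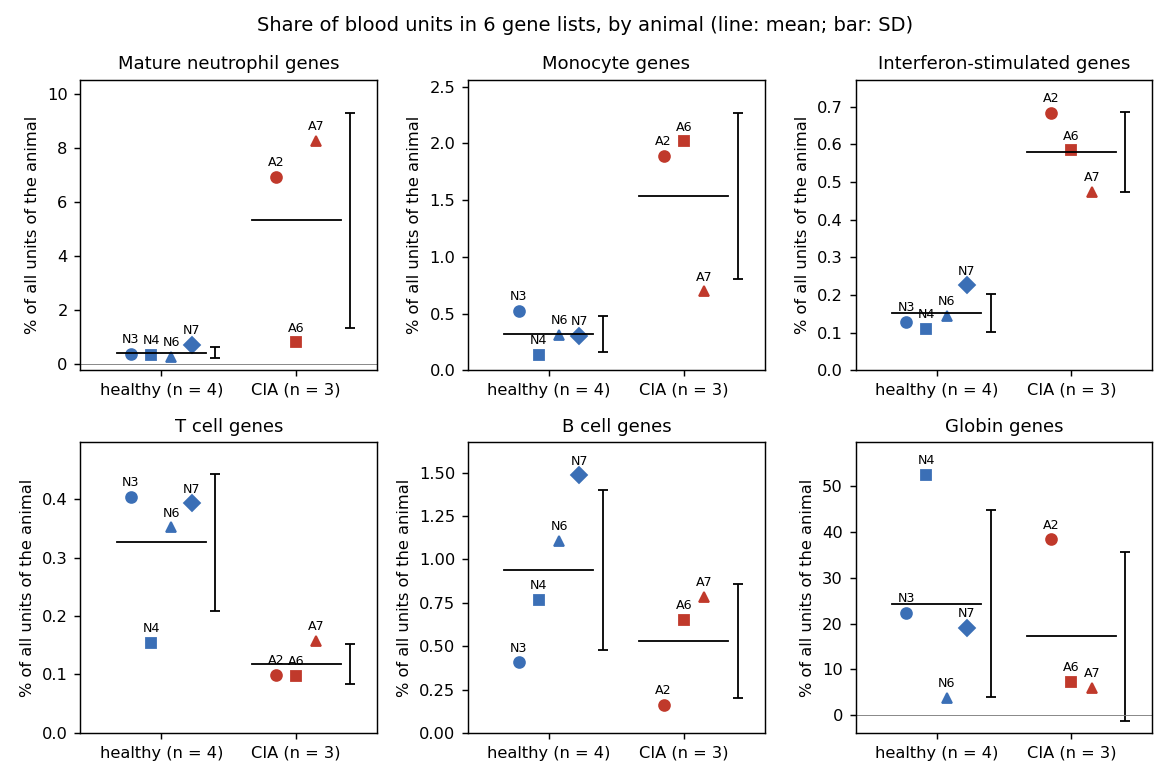
Percent of all units of each mouse in 6 gene lists (vertical axis, linear) for healthy (blue) and CIA mice (red). Each point is 1 mouse, horizontal lines are group means and bars are SD. The neutrophil list reaches 6.92% in A2 and 8.25% in A7 and stays at 0.810% in A6, the interferon list separates the groups, and the globin list ranges widely in both.

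To find the single genes behind these differences, limma was fitted to log2(UPM + 10) of the 4416 genes whose mean reached 25 UPM. At a Benjamini-Hochberg adjusted p under 0.05, 16 genes were called higher in CIA (0.362% of those tested) and none lower (0%). The calls leaned on single mice: without A2 no gene was called (775 had an unadjusted limma p under 0.05), and without N4 2 of the 16 were. Without A6, 10 genes were called, 8 of them among the 16, and without A7, 10 genes, 7 of them among the 16 and 1 lower in CIA. At an unadjusted limma p under 0.05, 133 genes were higher (3.01%) and 270 lower (6.11%), a split that became 82 and 357 under TMM scaling. For 219 genes (4.96%) every CIA mouse exceeded every healthy one, and for 265 (6%) every CIA mouse stayed below. The counts of list members below are to be read against these shares. Over all tested genes the log2 difference had a median of -0.10, and of -0.45 under TMM scaling. Positions are those of GRCm38.p6.

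Of the 22 tested members of the mature neutrophil list, 5 were called higher (S100a8, S100a9, Wfdc17, Retnlg and Hp), all 22 had a higher mean in CIA, and the median log2 difference was 1.85. S100a8 (chromosome 3, 90669071 to 90670034) stood at 694 UPM in N3, 1486 in N4, 940.1 in N6 and 3550 in N7. It stood at 43214 in A2, 3553 in A6 and 49101 in A7, and the groups differed by 3.84 on the log2 scale (SE 0.71, limma adjusted p 0.0167). A6 was level with the highest healthy mouse, and the other CIA mice lay far above it. S100a9 (chromosome 3, 90692630 to 90695721), the partner of S100a8 in calprotectin, was at 897, 832, 651 and 1604 UPM in the healthy mice in the order above, and at 14690, 1411 and 21150 in A2, A6 and A7. Its groups overlapped, since A6 lay below N7, and its limma adjusted p was 0.0474. Together both genes took up 5.79% of units in A2, 0.496% in A6 and 7.03% in A7, against 0.159% to 0.515% in healthy mice.

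The difference was not carried by the S100 genes alone. Without them, the mature neutrophil list summed to 1056 to 2377 UPM in healthy mice, 11309 in A2, 3134 in A6 and 12287 in A7, so that A6 lay above the healthy range as it did for the full list. Relative to units outside the globin genes, the full list overlapped, at 0.873% in A6 against 0.886% in N7, while A2 and A7 stood at 11.2% and 8.78%. Wfdc17 (chromosome 11, 83704056 to 83706269), a secreted whey acidic protein of myeloid cells, was at 109 to 336 UPM in healthy mice, 5233 in A2, 991 in A6 and 4701 in A7 (log2 difference 3.56, SE 0.59, limma adjusted p 0.00601). Retnlg (chromosome 16, 48872608 to 48874498), a resistin-like protein of neutrophils, was listed at 0 in N3, at 30.8 in N4, 47.8 in N6 and 86.6 in N7, and at 1447 in A2, 271 in A6 and 2364 in A7 (log2 difference 4.67, SE 0.83, limma adjusted p 0.0106). A6 had the lowest level of the CIA mice for all 5 called members. Hp, the haemoglobin-binding haptoglobin, was at 22.3 to 75.6 UPM in the controls and 398 to 681 with CIA (limma adjusted p 0.0247).

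Granule genes, which neutrophils transcribe while still maturing in the marrow, were more uneven. Of 11 tested members, 1 was called higher, Anxa1 (chromosome 19, 20373434 to 20390671), an anti-inflammatory phospholipid-binding protein, at 21.9 to 76.2 UPM in the controls and 378 to 718 with CIA (log2 difference 3.46, SE 0.68, limma adjusted p 0.0240). Cyba, a subunit of the phagocyte oxidase, stood at 205 to 385 UPM in the controls and 464 to 793 with CIA. The secondary granule genes stood out in A2. Camp, the cathelicidin peptide, was at 1352 UPM in A2, 69.1 in A7 and 0 in A6, and at 0 to 50.4 in healthy mice. Ngp, the neutrophilic granule protein, was at 1828 UPM in A2, 112 in A7 and 0 in A6, and at 0 to 36.1 in healthy mice. Ltf, lactoferrin, was listed above 0 in 1 CIA mouse (545 UPM in A2) and in 1 healthy mouse (8.20 in N4). Mmp8, neutrophil collagenase, named after its values were seen, was at 295 in A2 and 331 in A7, at 0 in A6 and at 0 to 1.03 in healthy mice. None of these 4 passed the adjustment in limma (adjusted p 0.480 to 0.646).

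In the monocyte list 2 of 17 tested members were called higher, Lyz2 and Plac8. All 17 had a higher mean in CIA, with a median log2 difference of 2.16, and for 10 the groups did not overlap. Of the 9 members under the minimum mean, 4 had a higher and 4 a lower mean in CIA, the latter Spn, Fn1, Ear2 and Cx3cr1, named after their values were seen. Lyz2 (chromosome 10, 117277541 to 117282272), lysozyme of monocytes, macrophages and granulocytes, was at 2759 UPM in N3, 350.1 in N4, 1024 in N6 and 871 in N7, and at 9975 in A2, 9301 in A6 and 2784 in A7. A7 thus lay barely above N3 (log2 difference 2.71, SE 0.60, limma adjusted p 0.0474). Plac8 (chromosome 5, 100551589 to 100572253), a small cysteine-rich protein high in classical monocytes and neutrophils, was at 0, 95.1, 306 and 241 UPM in the healthy mice and at 1789, 2265 and 1149 in A2, A6 and A7 (log2 difference 4.14, SE 0.83, limma adjusted p 0.0247).

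The markers of the classical monocyte also had a higher mean in CIA, and neither Ly6c2 nor Ccr2 was called over all mice. Ly6c2, which codes for the Ly6C antigen, was at 0 to 57.7 UPM in healthy mice, 634 in A2, 366 in A6 and 230.5 in A7 (log2 difference 3.81, SE 0.88, limma adjusted p 0.0586). It was called in 7 of 23 alternatives, among them the suffix 2CIA (log2 difference 5.28, SE 1.26, limma adjusted p 0.0175), where both healthy libraries listed it at 0, so the fitted difference depends on the pseudocount. Ccr2, the receptor for the monocyte chemoattractant CCL2, was at 23.8 to 179 UPM in healthy mice, 617 in A2, 842 in A6 and 189 in A7 (log2 difference 2.62, SE 0.72, limma adjusted p 0.238). F13a1 and Ms4a6c, monocyte genes named after their values were seen, were at 0 to 11.1 and 26.0 to 59.8 UPM in healthy mice and at 122 to 530.1 and 155 to 918 in the CIA group (limma adjusted p 0.0539 and 0.0546, each called in 5 of 23 alternatives). Csf1r, the receptor for macrophage colony-stimulating factor, overlapped between the groups: it was at 69.0 UPM in N3 and at 0 to 4.74 in the other healthy mice, and at 11.9 in A2, 100.1 in A6 and 0 in A7. The monocyte sum was highest in A6 (20181 UPM) and A2 (18918) and lower in A7 (6950), against 1342 to 5237 in healthy mice. The order of the CIA mice thus differed between both myeloid lists: A7 was highest for neutrophil and lowest for monocyte genes, and A6 the reverse. With 3 CIA mice neither order could be set against the arthritis score.

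Signalling genes shared by myeloid cells had a median log2 difference of 1.22 over 11 tested members, with 0 called and 5 higher at an unadjusted limma p under 0.05. Tyrobp, the adaptor DAP12, was at 84.7 to 179 UPM in the controls and 298 to 683 with CIA. Fcer1g, the common Fc receptor gamma chain, was at 40.0 to 474 in the controls and 417 to 752 with CIA, so its groups overlapped. Over the whole myeloid programme 61 of 89 members were tested, 59 had a higher mean in CIA, 8 were called and 22 did not overlap. Of the 28 members under the minimum mean 17 had a higher and 9 a lower mean in CIA, and 2 were listed at 0 in all mice. A member silent in healthy mice passes that minimum through the CIA mice alone, while the sums over all members need no minimum. The lists were chosen with earlier results of these data known, so neither measure is independent of them. Without S100a8 and S100a9 the programme made up 0.371% to 1.04% of units in healthy mice, 4.01% in A2, 2.87% in A6 and 2.43% in A7. Without the thin mice N3 and A6, the median was 2.85 for the neutrophil, 2.61 for the granule and 2.24 for the monocyte list, and 56 of 62 tested members of the programme had a higher mean in CIA.

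Among the interferon-stimulated genes 2 of 19 tested members were called higher, Ifi27l2a and Ifitm3, which had the smallest p of all genes. The median log2 difference of the list was 1.51, 17 of 19 had a higher mean in CIA, and for 7 the groups did not overlap. Without N3 and A6 the median was 1.29, with 14 of 19 higher. Of the 17 untested members 11 had a higher and 4 a lower mean in CIA, and 2 were listed at 0 in all mice. The list summed to 1091 to 2253 UPM in healthy mice, 6835 in A2, 5840 in A6 and 4729 in A7. Among the CIA mice it varied less than the neutrophil sum, which ran from 8098 to 82539 UPM. Ifi27l2a (chromosome 12, 103433873 to 103443680), a small interferon-induced membrane protein, was at 59.8 UPM in N3, 94.3 in N4, 104.9 in N6 and 277 in N7, and at 2047 in A2, 1743 in A6 and 1539 in A7. Its group means were 134 ± 97.4 (SD, n = 4) and 1776 ± 256 (SD, n = 3), a ratio of 13.3 and a difference of 3.83 on the log2 scale (SE 0.56, limma adjusted p 0.00299). It overlaps Ifi27 on the genome, so reads of both may have been shared.

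Ifitm3 (chromosome 7, 141009590 to 141010744), which blocks the fusion of viruses with the cell membrane, was at 55.2, 30.8, 21.1 and 33.0 UPM in N3, N4, N6 and N7 and at 1164 in A2, 966 in A6 and 445 in A7 (log2 difference 4.21, SE 0.67, limma adjusted p 0.00442). The neighbouring family member Ifitm6 (chromosome 7, 141015812 to 141016892) was called too, at 10.7 to 124 UPM in the controls and 331 to 937 with CIA (limma adjusted p 0.0474). Reads of such related copies may have been split between them. Ifi202b (chromosome 1, 173962569 to 173982844), an interferon-inducible DNA-binding protein of a family of near copies, was at 0, 4.10, 2.81 and 28.1 UPM in the healthy mice and at 431 in A2, 1174 in A6 and 153 in A7 (log2 difference 4.76, SE 0.93, limma adjusted p 0.0240). Ifi202b was highest in A6, the mouse with the lowest neutrophil sum of the CIA group.

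Other interferon-stimulated genes were not called, and 12 of the 19 tested overlapped between the groups, among them Psmb8, an inducible proteasome subunit, at 69.0 to 292 UPM in healthy mice and 347, 539 and 216 in A2, A6 and A7. Isg15, a ubiquitin-like protein, was at 0, 43.3, 36.5 and 38.6 UPM in the healthy mice and at 145, 190.4 and 175 in A2, A6 and A7 (log2 difference 2.43, SE 0.89, limma adjusted p 0.503). Rtp4 and Ifi44, named after their values were seen, were at 0 to 8.29 and 0 to 10.95 UPM in healthy mice and at 115 to 156 and 65.9 to 200.1 in CIA mice (limma adjusted p 0.182 and 0.328). Both were listed above 0 in N7 alone among the healthy mice, and the lowest level that N3 lists at all is 41.4 UPM. Ly6e, an interferon-inducible surface protein, was at 179 to 511 UPM in the controls and 367 to 483 with CIA and its difference of 0.36 (SE 0.56, limma adjusted p 0.906) changed sign under another scaling.

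The promoters of 2 interferon genes are shown because they bear on what the list shares. The motif GAAANNGAA, a core of the element bound by interferon-activated factors, was searched on both strands in the 250 bases before the RefSeq start site. Of the 27 interferon list genes with a RefSeq window, 15 held it (55.6%), against 8.18% of all 27025 genes with a window. Of the neutrophil list 1 of 24 genes held it (4.17%), of the monocyte list 5 of 22 (22.7%), of the B cell list 3 of 17 (17.6%) and of the T cell list 0 of 20. Isg15 (chr4:156200819-156201068, minus strand) held 3 overlapping matches, and Ifitm3 (chr7:141010745-141010994, minus strand), called here, held none. Ifi27l2a had no window. The sequences are from the reference strain C57BL/6J, not DBA1/J, and are written 5′ to 3′ with the matched bases in capitals:
Isg15: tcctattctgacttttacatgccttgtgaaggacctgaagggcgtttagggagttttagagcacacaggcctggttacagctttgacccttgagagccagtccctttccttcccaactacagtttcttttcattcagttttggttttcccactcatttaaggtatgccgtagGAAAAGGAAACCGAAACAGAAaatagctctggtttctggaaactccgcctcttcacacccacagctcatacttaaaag
Ifitm3: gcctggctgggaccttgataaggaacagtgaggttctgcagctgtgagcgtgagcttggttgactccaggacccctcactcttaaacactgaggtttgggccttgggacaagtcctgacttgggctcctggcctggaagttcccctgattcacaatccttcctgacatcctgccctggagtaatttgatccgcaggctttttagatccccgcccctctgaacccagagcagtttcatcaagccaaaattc

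The remaining called genes with a rank among the 15 smallest p were S100a6, Mgst1 and Lilr4b, and the sixteenth call was the gene model Gm7676. S100a6 (chromosome 3, 90612894 to 90614414), another S100 calcium-binding protein, was at 92.9 to 340.2 UPM in the controls and 947 to 1577 with CIA (limma adjusted p 0.0279). Mgst1, a microsomal glutathione transferase, was at 0 to 22.5 UPM in the controls and 244 to 380.3 with CIA. Lilr4b, a leukocyte immunoglobulin-like receptor with a near copy beside it, was at 0 to 26.0 UPM in the controls and 215 to 436 with CIA. Mgst1 and Lilr4b had a limma adjusted p of 0.0474.

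**Figure D2:**
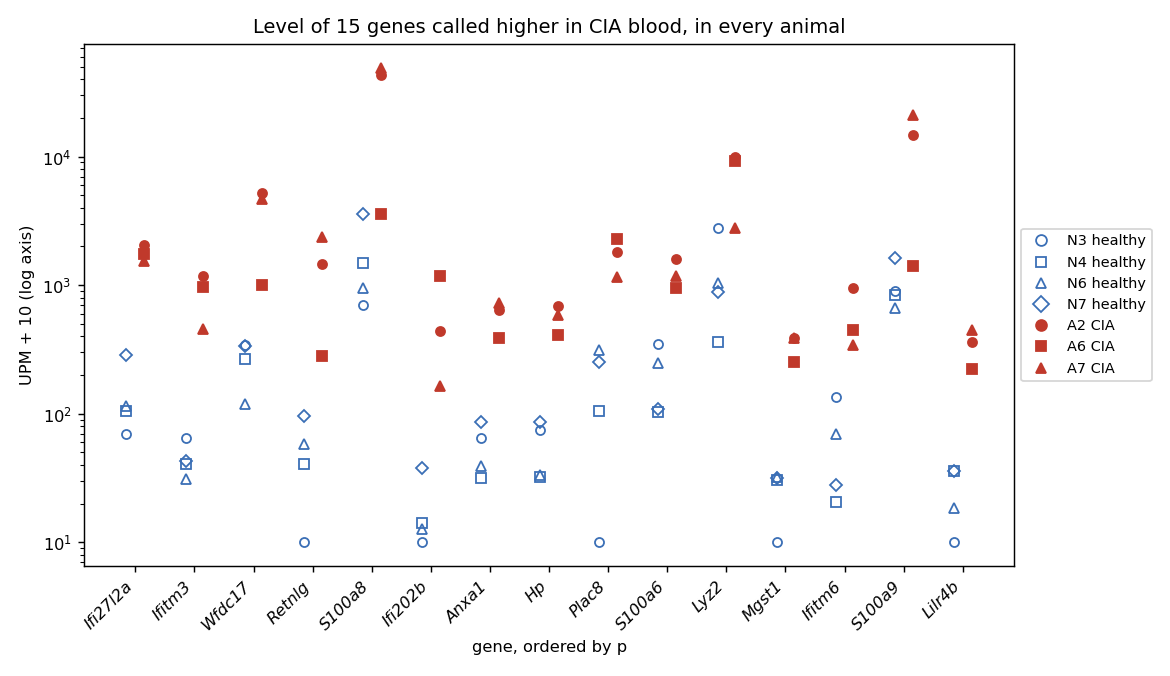
Level of the 15 called genes of smallest p in every mouse, as UPM + 10 on a log axis (vertical), with genes ordered by p (horizontal). Open blue symbols are healthy and filled red symbols CIA mice. The groups do not overlap except for S100a9, and A6 (red square) is the lowest CIA mouse for S100a8, S100a9, Wfdc17 and Retnlg and the highest for Ifi202b and Plac8.

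Of the called genes 11 were also called among the libraries of the suffix 2CIA, N3 and the 2CIA library of N4 against the 3 CIA mice, where limma called 15 of 3952 genes, 13 higher and 2 lower in CIA. There S100a8 was at 694 and 769 UPM in the healthy libraries (log2 difference 4.73, SE 0.76, limma adjusted p 3.81e-06) and Ifi27l2a at 59.8 and 78.2 (log2 difference 4.50, SE 0.76, limma adjusted p 1.25e-05). Lyz2, at 2759 and 1215 UPM in these 2 libraries, was not called within the suffix (log2 difference 1.79, SE 0.72, limma adjusted p 0.897). Hp, S100a6 and Mgst1 were not called there either (limma adjusted p 0.137 to 0.239). The fit within the suffix had 3 residual and 243.5 prior degrees of freedom, against 5 and 17.7 over all mice. Its variances came almost wholly from other genes, so its p-values do not measure the spread of a gene between these mice. The suffix CIA occurred in healthy blood alone, so it allows no comparison of its own.

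None of the 66 tested lymphoid members was called in either direction. Of these, 60 had a lower mean in CIA, 23 were lower and 0 higher at an unadjusted limma p under 0.05, and the median log2 difference was -1.36. Of the 32 members under the minimum mean 27 had a lower and 1 a higher mean in CIA, and 4 were listed at 0 in all mice. Without N3 and A6 the median was -1.47, with -1.53 for the T cell and -1.48 for the B cell list. The T cell list had the lowest median, -1.93 over 24 tested members, with 12 lower at an unadjusted limma p under 0.05 and 10 with all CIA below all healthy mice. Many of these values were listed at 0: 18 of the 24 were listed at 0 in A6 and 13 in A7, against 1 in A2, 2 in N3 and none in the other healthy mice. Summed, which depends less on single low genes, the T cell list came to 4046 UPM in N3, 1546 in N4, 3518 in N6 and 3929 in N7, and to 988 in A2, 981 in A6 and 1576 in A7. A7 overlapped N4 on this scale. As a percent of units outside the globin genes the groups parted, at 0.325% to 0.521% without and 0.106% to 0.168% with CIA.

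Trbc2, the constant region of the T cell receptor beta chain, was among the highest members at 717, 149, 346 and 453 UPM in N3, N4, N6 and N7 and 56.6, 237 and 123 in A2, A6 and A7 (log2 difference -1.52, SE 0.65, limma adjusted p 0.538). The CD3 subunits Cd3d and Cd3e, which relay the receptor's signal, were at 40.4 and 29.1 UPM in A2 and listed at 0 in A6 and A7, against 33.0 to 299 and 38.3 to 112 in healthy mice. Gimap4, a GTPase of lymphocyte survival, had one of the smallest p among lower genes, at 48.2 to 236 UPM in healthy mice, 14.0 in A2 and 0 in A6 and A7 (limma adjusted p 0.241). Cd2 and Ms4a4b, in contrast, were listed above 0 in every mouse and their groups overlapped, at 133 to 345 against 46.4 to 206 UPM for Cd2.

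B cell genes lay lowest in A2. The list summed to 4069 UPM in N3, 7676 in N4, 11069 in N6 and 14846 in N7, and to 1610 in A2, 6492 in A6 and 7817 in A7, so A6 and A7 lay within the healthy range. Of 25 tested members 8 were lower at an unadjusted limma p under 0.05, and the median log2 difference was -1.16. Igkc, the kappa light chain constant region, was at 1016 to 3428 UPM in healthy mice and at 273, 1494 and 1744 in A2, A6 and A7. Ighm, the heavy chain of IgM, was at 189, 613, 1052 and 1289 in the healthy and 152, 1032 and 715 in the CIA mice. Ighm differed by -0.37 on the log2 scale (SE 0.67, limma adjusted p 0.928) and by 0.59 within the suffix 2CIA. Ms4a1 (CD20), a surface marker of B cells, was at 198 to 784 UPM in healthy mice, 127 in A2, 309.95 in A6 and 382 in A7. Cd79a, a subunit of the B cell receptor, was at 276 to 571 UPM in healthy mice, 62.0 in A2, 217 in A6 and 522 in A7.

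Class II presentation genes, used by B cells and other antigen-presenting cells, also lay lowest in A2. Cd74, the invariant chain, was at 3633 to 4888 UPM in healthy mice, 1334 in A2, 3514 in A6 and 3695 in A7, and H2-Aa was at 2005 to 3046, 903, 3019 and 3140. Of 9 tested members 0 were called and the median log2 difference was -0.73. Cytotoxic genes differed between the CIA mice more than between the groups: Ccl5, a chemokine of T and NK cells, was at 143 UPM in A2, 1447 in A6 and 0 in A7, and at 109 to 1301 in healthy mice. Gzma, granzyme A, was at 18.3 in A2, 495 in A6 and 0 in A7, against 25.2 to 579. Ncr1, the NK cell receptor NKp46, was listed at 0 in all 3 CIA mice and in N3 and N4, and reached 39.2 UPM in N7. Of 14 plasma cell genes 3 were tested, and the joining chain gene Jchain was listed at 0 in all CIA mice and in N3 and at 3.69 to 22.9 UPM in the others.

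**Figure D3:**
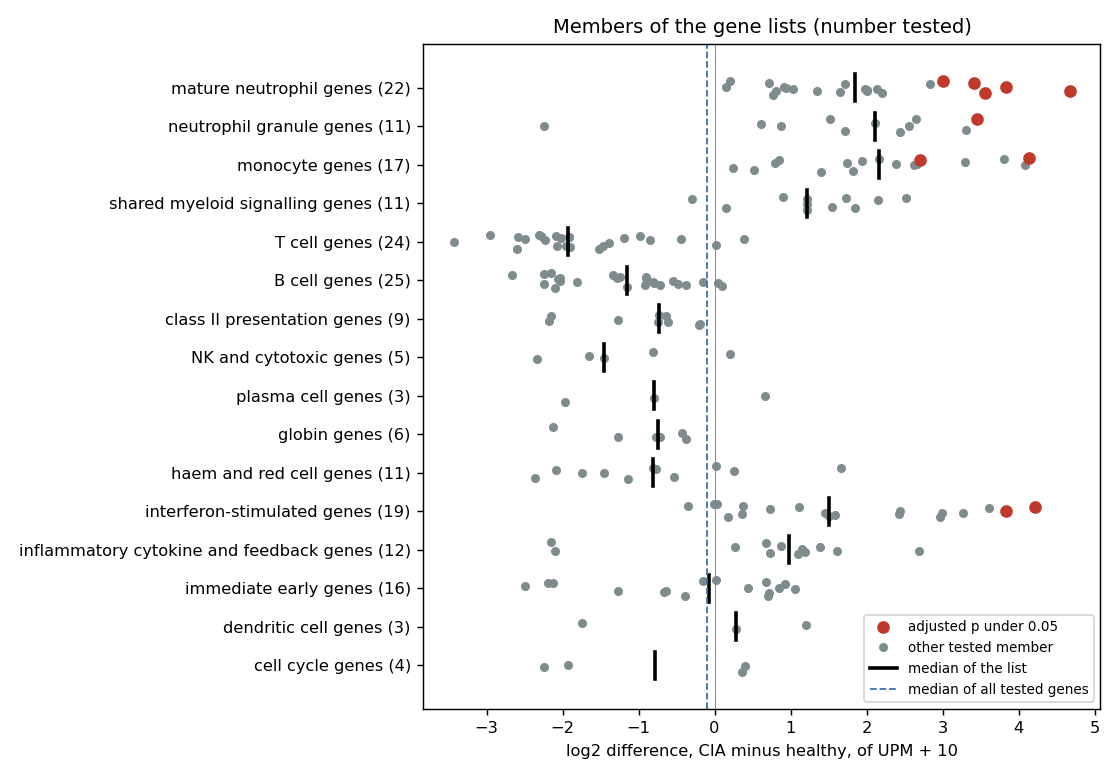
Log2 difference, CIA minus healthy, of log2(UPM + 10) for the tested members of 16 gene lists with at least 3 tested members (1 point a gene, red where the limma adjusted p is under 0.05). Black bars are list medians and the dashed line is the median of all tested genes, -0.10. Both neutrophil lists, the monocyte list and the interferon list lie to the right and the T cell list to the left, with called genes only on the right.

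The erythroid programme did not separate the groups. Hbb-bs, an adult beta globin gene of the reference annotation, was at 166713 UPM in N3, 373090 in N4, 26965 in N6 and 141877 in N7, and at 294910 in A2, 59642 in A6 and 50183 in A7. It differed by -0.37 on the log2 scale (SE 0.83, limma adjusted p 0.942), and Hba-a1, the alpha chain with a near-identical copy in Hba-a2, differed by -1.27 (SE 0.82, limma adjusted p 0.638). N4 carried the most in both of its libraries, at 586923 and 511031 UPM over all globin genes. Alas2, the first enzyme of haem synthesis in red cell precursors, was at 79.6 to 537 UPM in the controls and 77.4 to 287 with CIA. Epb41, protein 4.1 of the red cell skeleton, was at 154 to 241 UPM in the controls and 103 to 147 with CIA, one of 2 tested erythroid members whose groups did not overlap. Of the 17 tested erythroid members 0 were called, and 14 had a lower mean in CIA (median log2 difference -0.78). Relative to all tested genes the median of the erythroid programme was -0.67, and it was -1.76 without A2, -0.17 without N4 and -0.25 without A7. Hbb-bs changed sign without N4 or without A7. With all genes fitted and no minimum mean, Hbb-bs and Hba-a1 were called lower (limma adjusted p 4.51e-06 and 8.73e-14), at an SE of 0.062 and 0.15. Within the suffix 2CIA Hbb-bh1, an embryonic beta-like globin whose reads may be shared with the adult genes, was called lower, at 5963 and 17917 UPM in the healthy libraries and 3543, 1086 and 925 in A2, A6 and A7 (log2 difference -2.75, SE 0.72, limma adjusted p 0.0418). Of the 31 untested members 21 had a lower and 3 a higher mean in CIA, and 7 were listed at 0 in all mice. Because globins took up such different shares, all UPM of a mouse rich in globin are lowered. Relative to units outside the globin genes, the myeloid programme came to 0.821% to 1.54% in healthy mice and to 15.9% in A2, 3.62% in A6 and 10.1% in A7, and the lymphoid programme to 2.54% to 4.11% against 1.01%, 2.08% and 2.04%.

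Of 12 tested inflammatory cytokine and feedback genes 0 were called, while 10 had a higher and 2 a lower mean in CIA. The median log2 difference was 0.985, against -0.10 for all tested genes, and the summed levels of the groups overlapped. Il1b, interleukin 1 beta, was at 151 to 229 UPM in healthy mice, 539 in A2, 151 in A6 and 822 in A7 (log2 difference 1.14, SE 0.62, limma adjusted p 0.583), so that A6 stood with the healthy mice as for S100a9. Ccl6, a myeloid chemokine, did not overlap, at 385 to 532 UPM against 0 to 194 (log2 difference 2.69, SE 0.83, limma adjusted p 0.383). Tnf was under the minimum mean and not tested, at 0 to 52.4 UPM in healthy mice, 19.4 in A2 and 0 in A6 and A7. Tgfb1 was at 70.9 to 154 in healthy mice, 11.9 in A2, 0 in A6 and 98.8 in A7 (log2 difference -2.15, SE 0.93, limma adjusted p 0.538), and the difference was -0.37 within the suffix 2CIA. Immediate early genes, which respond to handling of cells, had 0 of 16 called and a median of -0.07, close to that of all tested genes. Junb and Klf6, the latter also high in myeloid cells, were at 1159 to 2200 and 296 to 622 UPM in the controls and 1654 to 2697 and 636 to 1010 in CIA mice.

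Markers of further cell types were sparse. None of the 12 platelet, 8 basophil and mast cell, 6 eosinophil or 6 keratinocyte and muscle genes in the table reached the minimum mean. Their summed levels were 0 to 31.6 UPM in the controls and 0 to 203 with CIA for platelet genes, 0 to 65.8 and 0 to 154 for basophil and mast cell genes, 0 to 34.2 and 0 to 12.9 for eosinophil genes, and 0 to 24.4 and 0 to 77.4 for keratinocyte and muscle genes. Pf4 and Ppbp, which define platelets, were at 138 and 38.3 UPM in A2 and at 0 in A6 and A7. Fibroblast genes such as Col1a1 and Col1a2 were listed at 0 in all mice.

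To see whether the higher sums came from a few barcodes, the share of both programmes was taken in each barcode, as a description without a test, since smoothing shares molecules between neighbouring barcodes. The myeloid share exceeded the lymphoid share in 0 of 27 barcodes of N3, 0 of 95 and 13 of 357 in the 2 libraries of N4, 3 of 306 in N6 and 49 of 934 in N7. It did so in 166 of 173 barcodes of A2, 20 of 62 of A6 and 46 of 97 of A7, that is in 32.3% to 96.0% of CIA barcodes and 0% to 5.25% of healthy ones. The median barcode held 6.07% myeloid units in A2, 1.11% in A6 and 2.22% in A7, against 0.394% to 1.44% in healthy libraries. The highest barcode reached 41.2% in A2, 8.25% in A6 and 41.3% in A7, and up to 12.2% in healthy libraries. In A6 the median lay under that of N3 (1.44%) and above those of the other healthy libraries (0.394% to 0.857%). The 20 barcodes of A6 on the myeloid side were set apart by their myeloid share. That they hold more of its myeloid units follows from this choice.

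The levels of Ifi27l2a and Ifitm3 were also taken on each side, more lymphoid or more myeloid. Over the barcodes with more lymphoid than myeloid units, Ifi27l2a was at 59.8 to 272 UPM in the healthy libraries and at 475 in A2 (7 barcodes), 749 in A6 (42 barcodes) and 833 in A7 (51 barcodes). Over the same barcodes Ifitm3 was at 97.8 UPM in the 2CIA library of N4 and at 12.02 to 55.2 in the other healthy libraries. It was at 0, 66.55 and 73.3 in A2, A6 and A7, so A6 and A7 lay under that library of N4 and above the others. On that side S100a8 was at 4401, 1348 and 8796 UPM in A2, A6 and A7 against 659 to 2057 in healthy libraries, and the whole interferon list at 2361, 3111 and 2216 against 918 to 2212. S100a8, a neutrophil gene, thus also lay above the healthy range there in A2 and A7. Over the barcodes on the myeloid side Ifi27l2a reached 2110, 3154 and 2229 UPM and Ifitm3 1210, 2244 and 807 in A2, A6 and A7. On that side the healthy mice N4, N6 and N7 had 79.6 to 356 UPM of Ifi27l2a and 0 to 154 of Ifitm3. The line between the sides is a cut through a range and not a cell type: 7 of the 7 lymphoid-side barcodes of A2, 10 of 42 of A6 and 51 of 51 of A7 lay within 2-fold of it. On the myeloid side 2 of 13 barcodes of N4, 3 of 3 of N6 and 33 of 49 of N7 lay that close, against 8 of 166 of A2, 1 of 20 of A6 and 12 of 46 of A7, so the myeloid sides of both groups are not like classes.

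**Figure D4:**
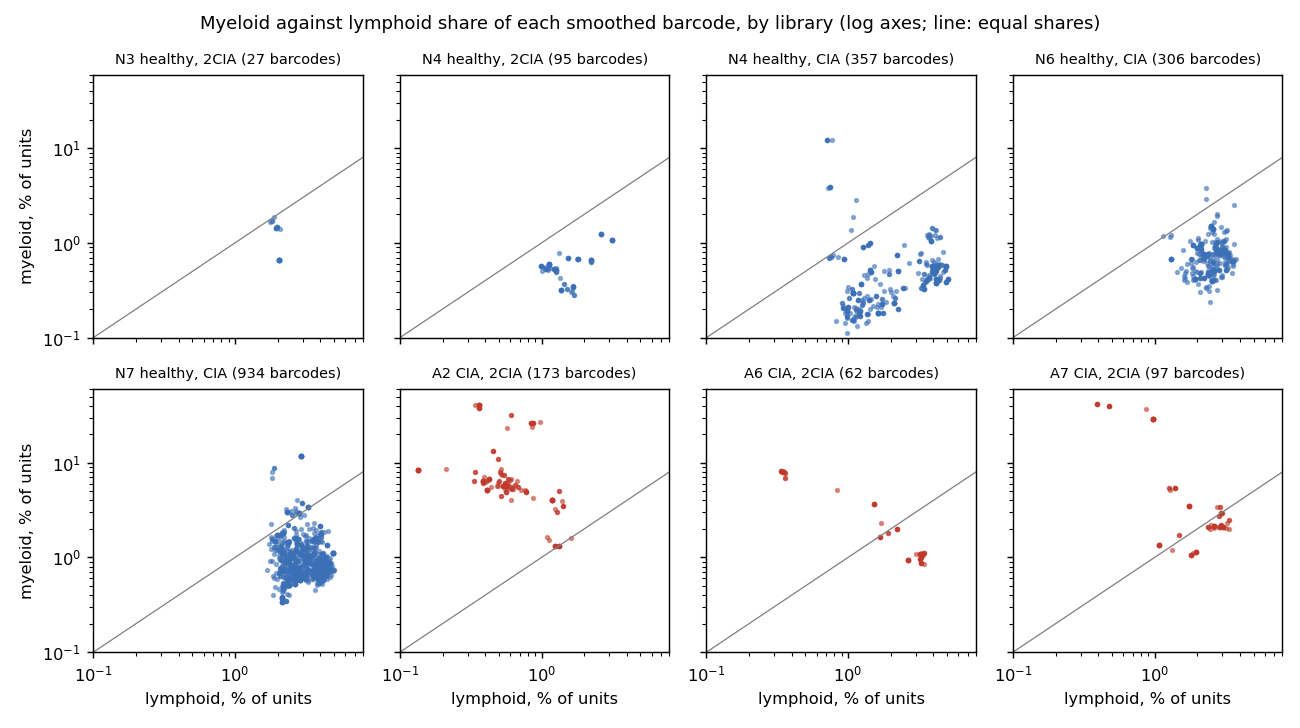
Percent of a barcode's units in the myeloid (vertical) and lymphoid programme (horizontal), on log axes, 1 panel a library and 1 point a barcode. The line marks equal shares and the panel titles give the mouse, its state and the title suffix. Healthy barcodes (blue) lie mostly under the line, those of A2 mostly above it, and those of A6 and A7 on both sides.

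The lower genes of smallest p rested on values listed at 0. Of the 10, Grap, Cnp, Cfdp1, Siglecg and Card6 were listed at 0 in all 3 CIA mice, and the other 5 (Iglc1, Gimap4, Rasgrp2, Tasor and Hivep2) in A6 and A7. Grap, an adaptor of lymphocyte receptor signalling, was at 74.6 to 119 UPM in healthy mice (limma adjusted p 0.238). Iglc1, a lambda light chain constant region with near copies, was at 96.6 to 373 UPM in healthy mice and 51.2 in A2 (limma adjusted p 0.238). Rasgrp2, a Rap1 activator of lymphocytes and platelets, was at 115 to 175 UPM in healthy mice and 47.5 in A2 (limma adjusted p 0.383). The healthy levels of Grap and Rasgrp2 lie under 185 UPM, the median level of the genes listed above 0 in A6, but above its lowest listed level of 34.2. In A2 the lowest listed level was 1.62 UPM, and Grap, Cnp, Cfdp1, Siglecg and Card6 were listed at 0 there too. The cause of these values was not tested.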

How the data were processed

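The deposited table was a signal: the authors summed the molecule counts (UMIs) of each barcode with those of its nearest neighbours (k = 12), after alignment to GRCm38 and removal of barcodes under 10000 reads, 400 transcripts or 200 genes. It listed whole numbers for 23013 genes by Entrez identifier, of which 21404 had a RefSeq symbol, and 2.48% of blood units lay in rows without one. Smoothing shares molecules between barcodes, so barcodes were never used as replicates and no count model was applied.

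Units were summed per mouse, scaled to UPM and fitted with limma 3.58.1 in R 4.3.3 as log2(UPM + 10), with a mean-variance trend and no covariate. Genes were tested where the mean over the 7 mice reached 25 UPM (4416). P-values are two-sided and Benjamini-Hochberg adjusted, with calls under 0.05. Fold changes on this scale understate the change of low genes, and the depth in single molecules is not given by the smoothed values. The labels name 7 separate mice. The pilot design gave each mouse 1 blood sample, apart from the 2 libraries of N4.

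The gene lists (21) and programmes were chosen with earlier results of these data known, so no p is given over a list. Named genes were the called genes (up to 15 per direction, by p, or the 10 of smallest p where fewer than 10 were called), the 4 highest members and all called members of each list, and defining markers. Genes named after their values were seen are marked. 10 list members were not matched and not analysed here, and some results are not reported here. Alternatives covered the scaling, pseudocount, filter, trend, weights, libraries of N4, distinct profiles, suffix, replicate block and each mouse left out, and leaving out N3 and A6 together was added after seeing the data. Python 3.11.15, pandas and matplotlib were used for sums and plots.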

Additional observations from a re-analysis of the deposited data

Results flagged for a closer look

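Among the 4 healthy mice, 12 of 99 values examined (70 tested and 5 untested genes and 24 list or programme sums) held 1 mouse far from the others by Dixon's criterion at the 95% level, that is with a gap to the nearest mouse that took up most of the group's range. Chance gives about 1 in 20 such values where values are independent and normally spread, which these are not. Sums overlap with their members, and a gene listed above 0 in 1 healthy mouse alone always meets the criterion. For 5 genes the mouse was N3 or N7 at the edge of detection: Mgst1, Isg15 and F13a1 were listed at 0 in N3, where 27.4% of the tested genes were listed at 0, and Rtp4 and Ifi44 were listed above 0 in N7 alone, at 8.29 and 10.95 UPM. Ltf (8.20 UPM), Pf4 (8.00 UPM) and Mmp8 (1.03 UPM) were listed above 0 in N4 alone. Ifi202b reached 28.1 UPM in N7 against 4.10 or less in the others, below the lowest CIA mouse at 153. Csf1r stood at 69.0 UPM in N3, and Epb41 was lowest in N6 at 154 UPM. The inflammatory genes summed to 3306 UPM in N3 against 1778 to 1954 in the other healthy mice, so N3 lay among the CIA mice (3197 to 4175).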

How the results depend on the processing

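The 16 called genes had a higher mean in CIA under every alternative run, but the number called did not hold. It was 9 under TMM scaling, 3 with a pseudocount of 1, 2 with a minimum mean of 100 UPM, 10 with 25 UPM required in 3 mice, and 0 without the mean-variance trend (504 genes at an unadjusted limma p under 0.05). Leaving out 1 mouse at a time gave 0 to 21 calls. Leaving out N3 and A6 together, an alternative chosen after seeing the data, gave 14, of which 10 were shared with the 16. Ifi27l2a and Ifitm3 were called in 20 of 23 alternatives each, Wfdc17 in 18 and S100a8 in 15, Lilr4b in 7 and Mgst1 in 5. Gm7676 was called in 4, and in 0 of the 7 with 1 mouse left out. Without a filter, 2 of 21 calls were lower in CIA. Relative to all tested genes, the median of the myeloid programme was 1.92 on the log2 scale. It was 1.23 with a pseudocount of 50, 2.72 without N3 and A6, and 1.45 to 2.497 with 1 mouse left out. For the lymphoid programme it was -1.26, -2.08 with a pseudocount of 1, and -1.39 to -1.02 with 1 mouse left out. For the erythroid programme it was -0.67, -1.75 within the suffix 2CIA, and -1.76 to -0.17 with 1 mouse left out. Of 70 single genes 7 changed sign. Ighm gave 0.59 within the suffix 2CIA and 0.43 without A2 (-0.94 to 0.43 with 1 mouse left out). H2-Aa gave 0.16 within the suffix, 0.38 without A2 (-0.52 to 0.38 with 1 mouse left out) and 0.32 with the replicate block. Ccl5 gave 0.40 without A7 (-3.19 to 0.40 with 1 mouse left out). Hbb-bs gave 0.11 without N3 and A6, 0.16 without N4 and 0.095 without A7 (-1.18 to 0.16 with 1 mouse left out). Hbb-bh1 gave 0.036 with array weights. Ly6e gave -0.0018 under TMM scaling, -0.12 with array weights, -0.19 with the replicate block and -0.018 without N3 and A6. Nfkbia gave -0.10 under TMM and -0.021 under median-of-ratios scaling. Of these 7, Hbb-bs was called in 1 alternative, without a filter (lower in CIA, limma adjusted p 4.51e-06), Hbb-bh1 in 1, within the suffix 2CIA, and the other 5 in none. Mice 6 and 7 of both groups shared a number but were different animals. With the number as a replicate block 0 genes were called (575 at an unadjusted limma p under 0.05), and deviations of same-numbered mice correlated at 0.207 and -0.083. The cause of these changes was not tested. Depth limits every level near or under the lowest listed value of N3, A6 and A7.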

Other observations

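The 2 libraries of N4 came from 1 mouse and give the only view of spread within a mouse. Over the tested genes they differed by a median of 1.15 on the log2 scale (r = 0.703 across genes, which are not independent), within the range of 0.529 to 1.41 over the 6 pairs of different healthy mice. Pairs of a CIA and a healthy mouse differed by 0.691 to 1.87 and pairs of CIA mice by 0.895 to 1.86.

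Genes of the lists not described above gave few values. Of 10 dendritic cell genes 3 were tested, with a median log2 difference of 0.28, and of 12 cell cycle genes 4, with a median of -0.79. Trim30a, an interferon-induced antiviral protein, and Lcn2, a neutrophil iron-binding lipocalin, both named after their values were seen, lay at 0 to 106 and 0 to 16.4 UPM in healthy mice. Trim30a was at 197 UPM in A2, 325 in A6 and 580 in A7 (limma adjusted p 0.259), and Lcn2 at 224, 0 and 183. Nfkbia, the feedback inhibitor of NF-kappa B, overlapped, at 875 to 1421 UPM in the healthy group and 834 to 1714 in the CIA group.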
